A study of Mus musculus with 24 samples.

Results

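Interferon-stimulated genes are the genes that cells switch on after contact with interferons. The set described here holds 35 of them, listed by symbol: transcription factors and regulators of the interferon pathway, sensors of foreign nucleic acid, and effectors. All 35 were found among the 57126 gene identifiers of the deposited count table, and 34 had enough counts to be tested. Oas2 did not, with at most 23 counts in a library.

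The counts came from pieces of the ileum, the most distal segment of the small bowel, of wild-type male C57BL/6J mice after 4 h of starvation. The fragments were kept for 8 h with an additive, and their RNA was read by QuantSeq 3′ mRNA-seq, which gives tags from the polyadenylated end of each transcript. The question was how the mouse's own bile acids regulate genes. Each of 6 groups had 4 libraries. The control group received the solvent DMSO, and the second group tCDCA, tauro-conjugated chenodeoxycholic acid, a bile acid. The other 4 groups received extracts of wild-type (WT) or Asbt-/- donor mice, each as CME(-) and as CME(+). Asbt takes up bile acids in the ileum. Its deletion was in the donors of the extract only, and the tissue itself was wild-type throughout. The labels do not explain CME, and CME(+) was taken as the form depleted of bile acids. A concentration of 200 µM is given for tCDCA and CME(-) in replicates 2 to 4.

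The submitters marked 3 libraries as removed: DMSO replicate 1, which had 0.5% DMSO in place of 0.6%, and 2 poorly mapped libraries, WT CME(+) replicate 2 and Asbt-/- CME(-) replicate 3. The 21 libraries used here held 2.76 to 5.6 M counts each. Column names carry 2 prefixes: replicate 1 of each group has the first and replicates 2 to 4 have the second. They are called the first and second run here. The labels do not say whether they stand for sequencing runs, separate cultures or both. The DMSO group therefore has no used library of the first run. Whether separate animals gave the fragments of a group is not in the labels, and the p-values then speak only of the spread between libraries, which may be technical. The ileal genes Slc10a2, Fabp6 and Fgf15 together held 2960 to 7040 counts per M library counts (CPM) in the used second-run libraries, and the epithelial genes Epcam, Vil1, Cdh1, Krt8 and Krt20 together 2580 to 3830. The mitochondrial rRNA genes, whose share of the counts can move with RNA quality, held 6.78 to 8.29% of a first-run library and, tCDCA replicate 3 aside, 17.6 to 34.6% of a used second-run library. That library stood apart at 5.29%, and it was the highest of the 16 used second-run libraries for 12.3% of all genes and the lowest for 12.6%, the largest shares of any. In such pieces of whole tissue, fewer cells of a type and less RNA per cell cannot be told apart.

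Type I and type III interferons signal through JAK kinases to a complex that includes STAT2 and IRF9 and binds the interferon-stimulated response element (ISRE) in the promoters of target genes. Interferon-gamma acts through another element, called GAS. IRF7, itself a target, drives a second wave of interferon production. In the gut, epithelial cells keep a low tonic level of these genes without infection and respond strongly to type III interferon.

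The promoters of the 5 genes of the set that passed the test in any comparison below are shown here, so that they can be compared for the ISRE. Each window runs 5′ to 3′ from 250 bases before to 50 bases after the start of the transcript, in the RefSeq promoter table of build GRCm38.p6. The ISRE core was searched on both strands as the 4 letters GAAA, any 2 bases, and GAAA again. Matches are in capitals, and they read TTTC at both ends where they lie on the other strand.

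Irf7, chr7:141266375-141266674, minus strand: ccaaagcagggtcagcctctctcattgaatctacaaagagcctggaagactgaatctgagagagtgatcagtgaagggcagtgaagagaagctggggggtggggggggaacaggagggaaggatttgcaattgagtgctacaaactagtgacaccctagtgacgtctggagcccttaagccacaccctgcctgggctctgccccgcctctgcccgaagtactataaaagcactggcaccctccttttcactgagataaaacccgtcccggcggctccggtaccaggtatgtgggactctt

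Ddx60, chr8:61927837-61928136, plus strand: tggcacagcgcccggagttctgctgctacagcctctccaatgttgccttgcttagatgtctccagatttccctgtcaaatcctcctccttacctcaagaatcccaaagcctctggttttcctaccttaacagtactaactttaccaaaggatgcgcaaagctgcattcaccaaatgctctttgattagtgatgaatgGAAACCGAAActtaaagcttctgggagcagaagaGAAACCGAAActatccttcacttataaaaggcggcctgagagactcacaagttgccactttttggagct

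Oasl2, chr5:114896684-114896983, plus strand: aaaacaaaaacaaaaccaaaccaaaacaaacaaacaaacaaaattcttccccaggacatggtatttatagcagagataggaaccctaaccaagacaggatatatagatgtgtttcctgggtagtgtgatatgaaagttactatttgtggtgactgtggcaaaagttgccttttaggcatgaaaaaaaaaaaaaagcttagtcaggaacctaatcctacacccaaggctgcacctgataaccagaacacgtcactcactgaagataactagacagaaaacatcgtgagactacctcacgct

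Trim30a, chr7:104465144-104465443, minus strand: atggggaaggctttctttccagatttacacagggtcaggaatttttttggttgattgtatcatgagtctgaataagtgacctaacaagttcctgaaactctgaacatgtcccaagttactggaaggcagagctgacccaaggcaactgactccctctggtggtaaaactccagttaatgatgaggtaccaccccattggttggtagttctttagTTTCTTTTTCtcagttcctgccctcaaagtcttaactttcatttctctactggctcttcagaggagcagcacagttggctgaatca

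Stat2, chr10:128270248-128270547, plus strand: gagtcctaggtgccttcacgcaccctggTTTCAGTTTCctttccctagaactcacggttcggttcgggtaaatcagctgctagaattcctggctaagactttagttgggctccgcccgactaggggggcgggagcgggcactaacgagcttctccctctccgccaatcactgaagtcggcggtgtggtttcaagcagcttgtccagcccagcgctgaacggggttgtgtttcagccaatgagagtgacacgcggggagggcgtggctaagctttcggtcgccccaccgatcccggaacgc

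The Ddx60 window held 2 identical copies of the core, beginning 53 and 19 bases before the start. The Trim30a window shown had 1 match, 36 bases before the start, and Stat2 had 1, 222 bases before it. A further Trim30a window, of another start and not shown, had 1 match, beginning at base 3 of the transcript. The windows of Irf7 and Oasl2 held no match to these letters. Of the 35 genes, 26 were in the table, with 30 windows. The core was present in 16 of these 30 windows, against 3.44% of all 32851 windows. Counted by gene, it was present in 15 of the 26 (57.7%). Isg15 held 3 overlapping copies, the first beginning 78 and the last 66 bases before its start, and Ifit1 held 2. The GAS letters TTCNNNGAA on either strand were present in 8 of the 30 windows, against 8.3% of all windows. Counted by gene, they were present in 8 of the 26 (30.8%). The 9 genes with no entry were Usp18, Dhx58, Zbp1, Oas2, Mx1, Mx2, Rtp4, Parp14 and Parp9. A match is a description of these letters and not a measured binding site.

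With tCDCA, 4 of the 34 tested genes were lower than with DMSO and none was higher. They were Irf7, the transcription factor named above, Ddx60, a helicase that assists RNA sensing, Oasl2, a member of the OAS family, and Trim30a, a TRIM protein that restrains inflammatory signalling. Irf7 fell 2.62-fold, Ddx60 3.49-fold, Oasl2 1.91-fold and Trim30a 1.99-fold. Across all 13125 genes tested, 5.68% were called by the same rule, an edgeR adjusted p under 0.05, with 3.16% lower and 2.52% higher. The log2 change was below 0 for 30 of the 34 genes, against 49.8% of all genes, and its median was -0.56, against 0 for all genes. At an unadjusted p under 0.05, 9 of the 34 were lower and none higher, against 8.83% and 8.86% of all genes.

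Of the 5 regulators, Irf7 changed. Its level was 33.6, 45.1 and 44.6 CPM in the DMSO libraries of replicates 2 to 4, and 19.3, 12 and 17.6 in the tCDCA libraries of the same numbers. The groups did not overlap. The first-run tCDCA library was at 12.2 CPM and the removed first-run DMSO library at 27.5. The log2 change was -1.39 ± 0.24 (SE), with an edgeR adjusted p of 0.00012, and the call held under all 33 alternatives tried, at -1.52 to -1.2.

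Stat2, a subunit of the complex that binds the ISRE, was at 26.6, 44 and 22.7 CPM with DMSO and at 19.3, 19.3 and 17.3 with tCDCA in the second run. The tCDCA values lay close together below all DMSO values, but the first-run tCDCA library was at 31.9 and the difference missed the threshold (log2 -0.65 ± 0.27, adjusted p = 0.176). Irf9, the DNA-binding subunit of the same complex, was at 19.2, 36 and 22.7 CPM with DMSO and 36.6, 43.6 and 32 with tCDCA. Its value was on the other side of 0, at 0.42 ± 0.24 (adjusted p = 0.365). Irf1, a target of interferon-gamma, stood at -0.21 ± 0.34, and Usp18, the protease that removes ISG15 and dampens receptor signalling, at -0.17 ± 0.63.

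**Figure D1:**
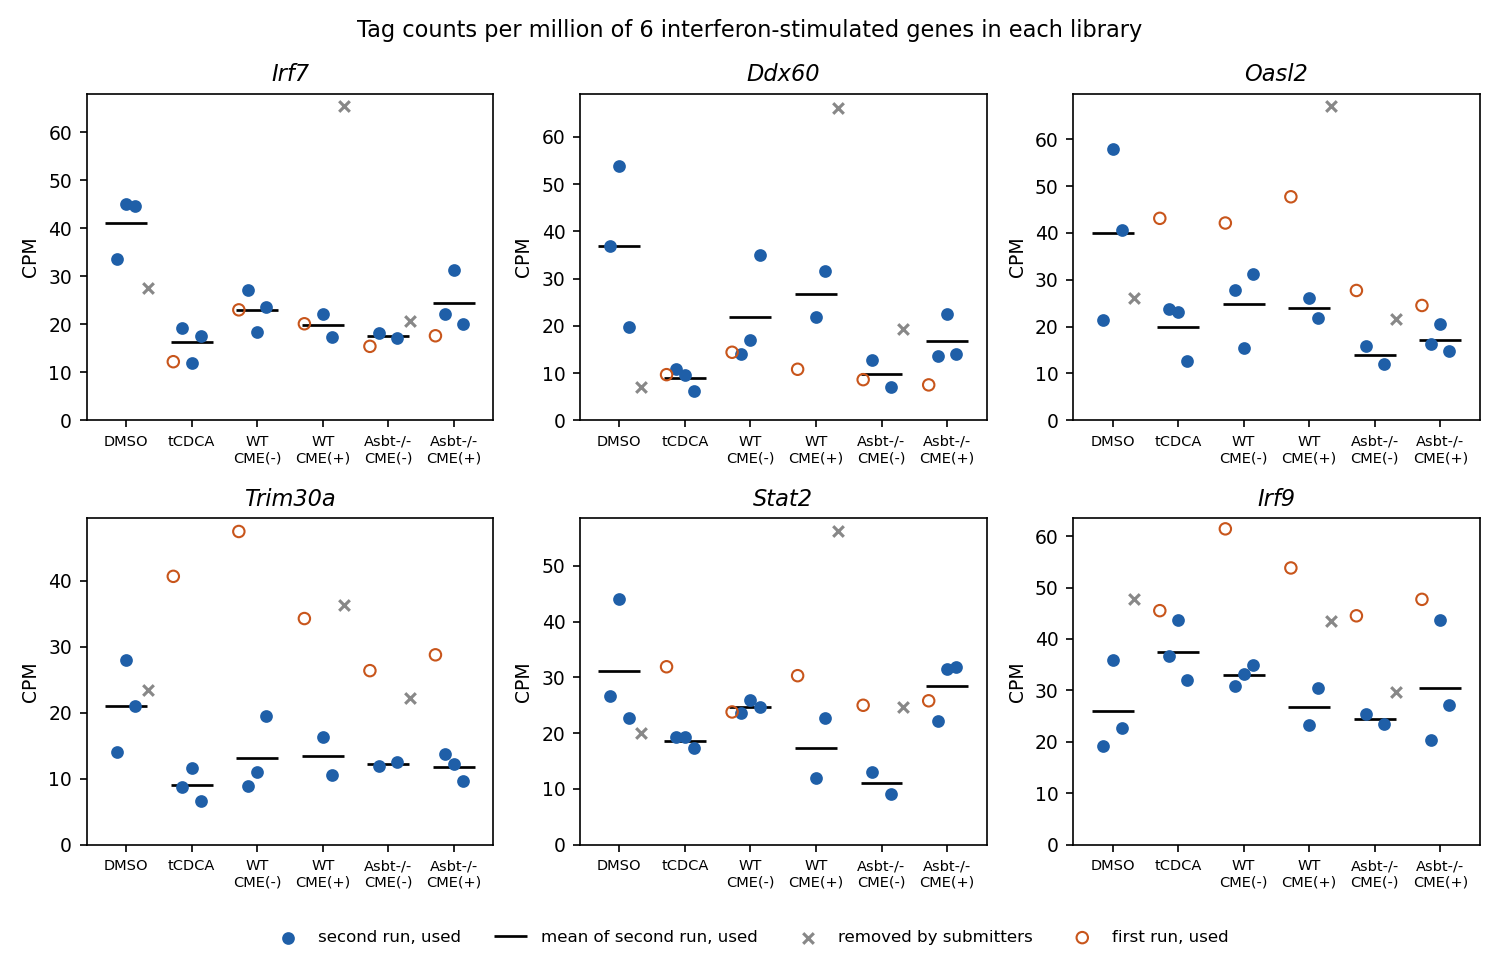
Levels of 6 interferon-stimulated genes in each of the 24 libraries, in CPM on a linear axis from 0, by group. Filled circles are used second-run libraries with their mean as a bar, open circles used first-run libraries, and crosses the removed libraries; the 3 used DMSO libraries of Irf7 sit at 33.6 to 45.1 CPM, above all other used libraries.

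All 6 sensors had log2 changes below 0, and Ddx60 passed the test. Ddx60 was at 37, 53.8 and 19.7 CPM in the second-run DMSO libraries and at 10.9, 9.66 and 6.28 with tCDCA. The lowest DMSO library was above the highest tCDCA library. The change was -1.8 ± 0.35 (adjusted p = 0.0012). In the first run, however, the tCDCA library was at 9.66 CPM and the removed DMSO library at 7.13. With all 24 libraries in the model the adjusted p was 0.116 (-1.42 ± 0.47). The cytosolic RNA sensors Ddx58 (RIG-I) and Ifih1 (MDA5) were at -0.38 ± 0.22 and -0.52 ± 0.28, with adjusted p of 0.388 and 0.36. Ifih1 rested on 1 library: without DMSO replicate 3 it was at 0.05. Dhx58, Zbp1 and the RNA-dependent kinase gene Eif2ak2 were at -0.97, -0.39 and -0.34.

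In the OAS family, whose enzymes make 2-5A and so switch on RNase L, Oasl2 passed the test. It was at 21.4, 58 and 40.7 CPM with DMSO and at 23.7, 23.2 and 12.6 with tCDCA, so that the lowest DMSO library lay within the tCDCA range. In the first run the order was the opposite, with 43.1 CPM in the tCDCA library and 26.2 in the removed DMSO library. The change was -0.93 ± 0.27 (adjusted p = 0.0311), and without DMSO replicate 3 it was -0.57 (adjusted p = 0.394). The call was also lost without DMSO replicate 4 (adjusted p = 0.0788) or tCDCA replicate 4 (adjusted p = 0.139). Oas3 was at 4.28, 11.2 and 8.86 CPM with DMSO and at 3.05, 2.61 and 2.51 with tCDCA in the second run, but at 14.1 in the first-run tCDCA library. Its change was -1.17 ± 0.56 (adjusted p = 0.263). Oas1a, whose reads may be shared with the near-identical Oas1g, was at 0.05 ± 0.54. Oas2 was at 0 to 1.05 CPM with DMSO and 0 to 3.42 with tCDCA over the used libraries.

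The 3 IFIT genes, whose products bind foreign RNA ends, had changes of -1.12 (Ifit1), -0.48 (Ifit2) and -0.68 (Ifit3), none of which passed. Ifit1 was at 19.2, 82.1 and 21.3 CPM with DMSO and at 15.9, 25.1 and 8.16 with tCDCA in the second run. DMSO replicate 3 stood apart from the other DMSO libraries here, and those overlapped the tCDCA range (adjusted p = 0.348). Ifit3 can share reads with its copy Ifit3b.

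Among the 12 antiviral effectors, Trim30a passed the test. It was at 14.1, 28 and 21 CPM with DMSO and at 8.82, 11.7 and 6.59 with tCDCA, with no overlap, and its change was -1 ± 0.29 (adjusted p = 0.0355). The first-run tCDCA library was at 40.7 CPM and the removed first-run DMSO library at 23.5. Without DMSO replicate 3 the change was -0.74 (adjusted p = 0.295). The call was also lost, at adjusted p of 0.0506 to 0.142, without DMSO replicate 4, tCDCA replicate 2, tCDCA replicate 4 or WT CME(-) replicate 1. Reads of Trim30a can be shared with other genes of the Trim30 cluster.

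Ifi35, an interferon-induced leucine zipper protein, was at 11.9, 30.8 and 28.2 CPM with DMSO and at 11.5, 12.3 and 9.42 with tCDCA in the second run. Only DMSO replicate 2 lay in the range of the tCDCA libraries, and the change was -0.89 ± 0.34 (adjusted p = 0.122). Without that library Ifi35 passed (-1.21, adjusted p = 0.0286). Isg15, the ubiquitin-like protein that is attached to targets in antiviral defence, was at 24.7, 73 and 29.3 CPM with DMSO and at 24.4, 40.2 and 17.6 with tCDCA. The groups overlapped, at -0.57 ± 0.39 (adjusted p = 0.505). The other effectors ran from -0.92 for Rsad2, which encodes viperin, and Gbp2 to 0.4 for Ifitm3, which blocks viral entry, and 0.57 for Mx1, whose protein is non-functional in C57BL/6 mice. Mx1 was at 0 to 6.39 CPM over the used DMSO and tCDCA libraries, and its interval ran from -1.21 to 2.34.

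Parp9 and Dtx3l, an ADP-ribosylation enzyme and its partner ubiquitin ligase whose genes are transcribed from a shared promoter, were at -0.38 ± 0.26 and -0.56 ± 0.23, and Parp14 at -0.45 ± 0.27. Dtx3l was at 76.4, 127 and 75.6 CPM with DMSO and at 53.9, 71.5 and 46.5 with tCDCA in the second run. These did not overlap, and the adjusted p was 0.176. Of the 2 immunoproteasome subunits, which shape peptides for display on MHC class I, Psmb9 came closest to the threshold. It was at 31.5, 41.9 and 40.7 CPM with DMSO and at 14.6, 22.2 and 14.1 with tCDCA in the second run. The first-run tCDCA library was at 41.9 CPM and the removed first-run DMSO library at 35.8. The change of Psmb9 was -0.93 ± 0.32 (adjusted p = 0.098), and DESeq2 called it (adjusted p = 0.0352). It also passed in edgeR without tCDCA replicate 1 (adjusted p = 0.0298) or Asbt-/- CME(+) replicate 2 (adjusted p = 0.0415). Psmb8 was at -0.66 ± 0.37.

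In the second run alone, 9 of the 34 genes had all tCDCA libraries below all DMSO libraries: Irf7, Stat2, Ddx60, Oas3, Ifi44, Trim30a, Parp9, Dtx3l and Psmb9. The share of all genes that did so was 9.78%. None had all tCDCA libraries above, against 9.33%.

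**Figure D2:**
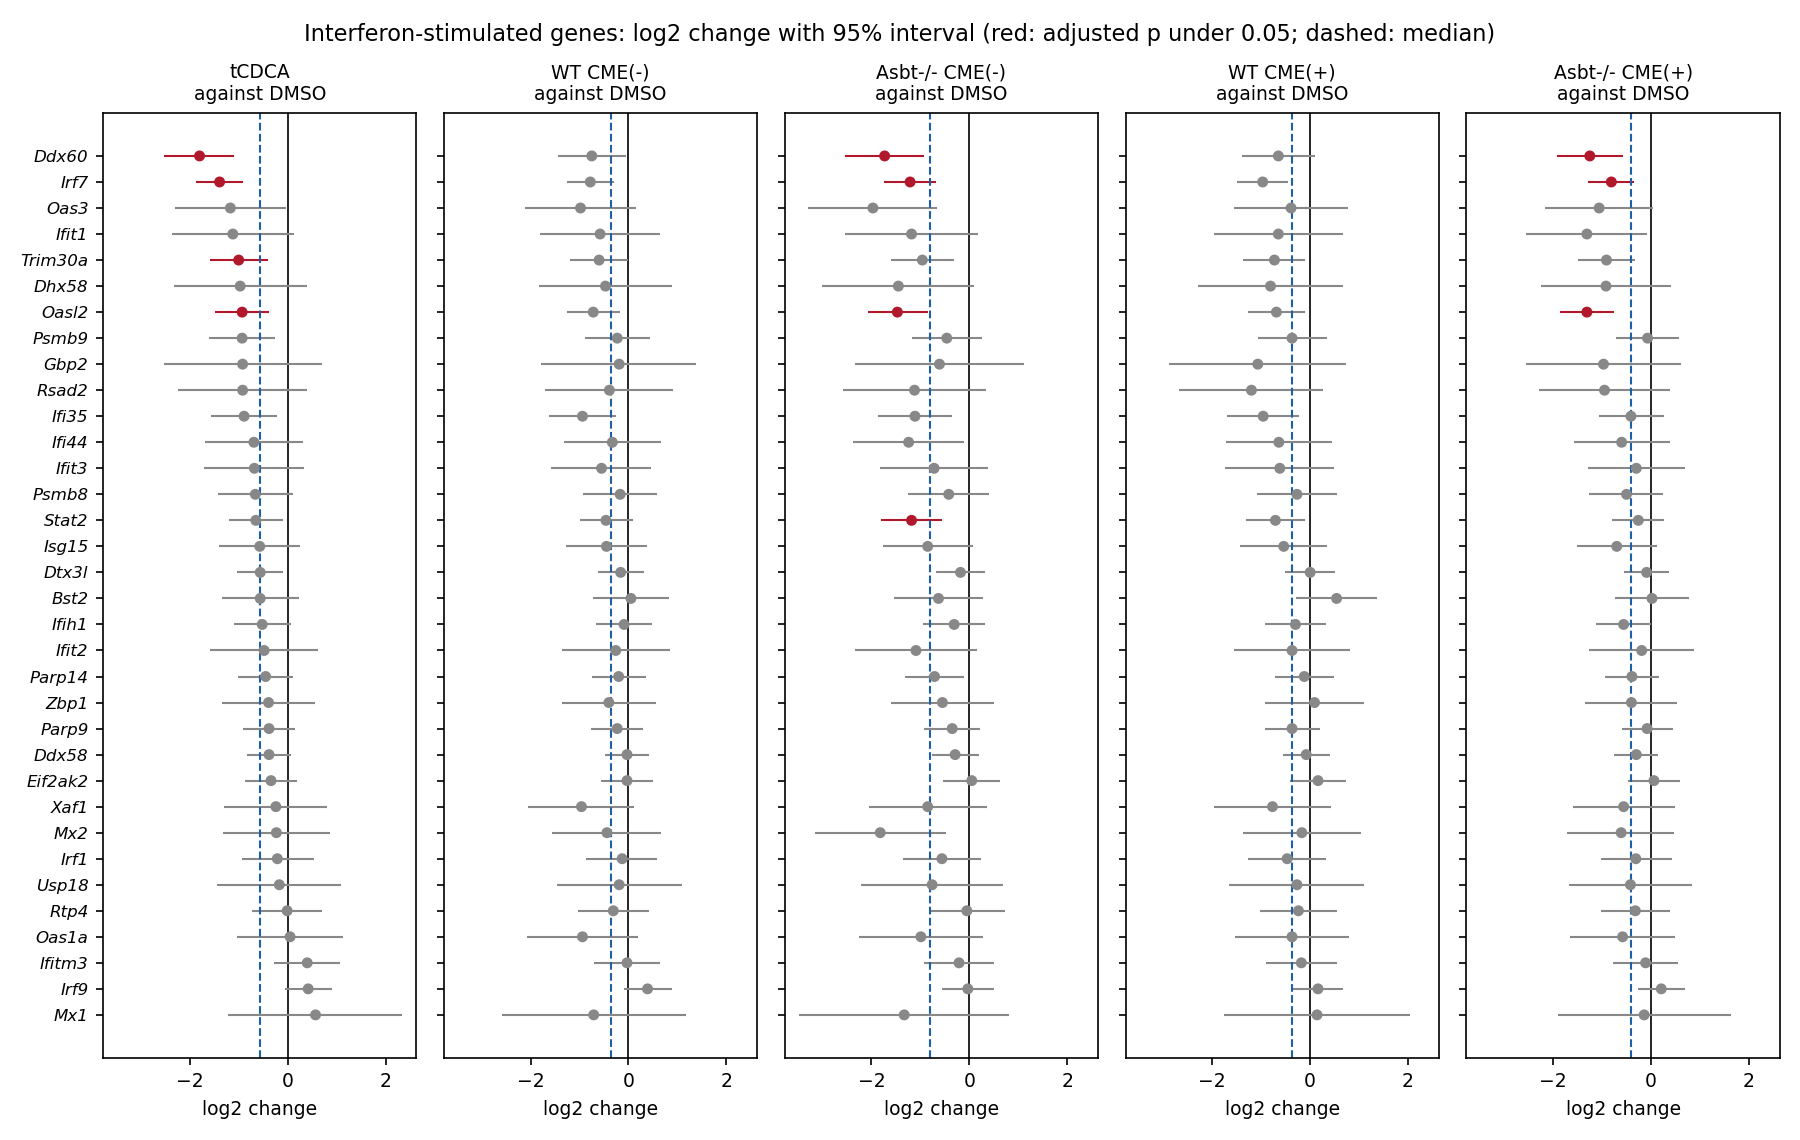
Log2 change of the 34 tested genes against DMSO in 5 panels, 1 for each treatment, with 95% intervals from edgeR, ordered by the change with tCDCA. Red marks an adjusted p under 0.05 and the dashed line the median of the 34 genes; Irf7, Ddx60 and Oasl2 are red in the panels of tCDCA, Asbt-/- CME(-) and Asbt-/- CME(+), which share the DMSO libraries.

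The DMSO libraries were not alike. DMSO replicate 3 was the highest of the 16 used second-run libraries for 18 of the 34 genes, against 10.5% of all genes. The summed level of the 34 genes was 953, 1790 and 1020 CPM in DMSO replicates 2 to 4, 808, 979 and 884 in the tCDCA libraries, and 781 to 1460 with the extracts. Without DMSO replicate 3, 2 of the 34 genes were called with tCDCA, Irf7 and Ddx60, and the median change was -0.19. Without tCDCA replicate 3, named above for its mitochondrial rRNA, Irf7, Ddx60, Oasl2 and Trim30a were still called, and the median was -0.65. Absorptive enterocyte markers moved the same way: the sum of Alpi, Anpep, Apoa1, Apoa4, Fabp1, Fabp2, Slc5a1 and Mttp was 4900, 9510 and 6360 CPM in DMSO replicates 2 to 4, against 3310, 1550 and 1360 with tCDCA. Of these 8 markers 5 fell with tCDCA, with a median of -1.56. Of the 5 epithelial genes named above 2 fell. The sum of all 5 was 3140 to 3830 CPM with DMSO and 2580 to 2810 with tCDCA in these libraries. None of the 5 fibroblast markers was called, but all were below 0, with sums of 436 to 460 and 215 to 426 CPM. Smooth muscle markers summed to 707 to 1300 and 602 to 1610 CPM, and endothelial markers to 36.3 to 49.6 and 38.6 to 54.6. The summed T and NK cell markers were at 10.4 to 36.3 CPM with DMSO and 8.48 to 13.3 with tCDCA, and pan-leukocyte markers at 30.9 to 41.9 and 19.5 to 32.6. Macrophage markers summed to 67.5 to 101 CPM and 60.7 to 97.9, and dendritic cell markers to 5.8 to 7.75 and 3.39 to 7.46. None of the tested immune cell markers was called, which were 4 of 4 pan-leukocyte, 5 of 8 T and NK cell, 1 of 5 B and plasma cell, 7 of 7 macrophage and 3 of 5 dendritic cell markers. Of the defining T cell genes, Cd3e and Cd3d were at 0 to 0.916 CPM in these 6 libraries, and of the B cell genes, Mzb1 was at 0 and Cd79a at 0 to 0.522. The part of these cells in the changes of interferon-stimulated genes was not tested.

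**Figure D3:**
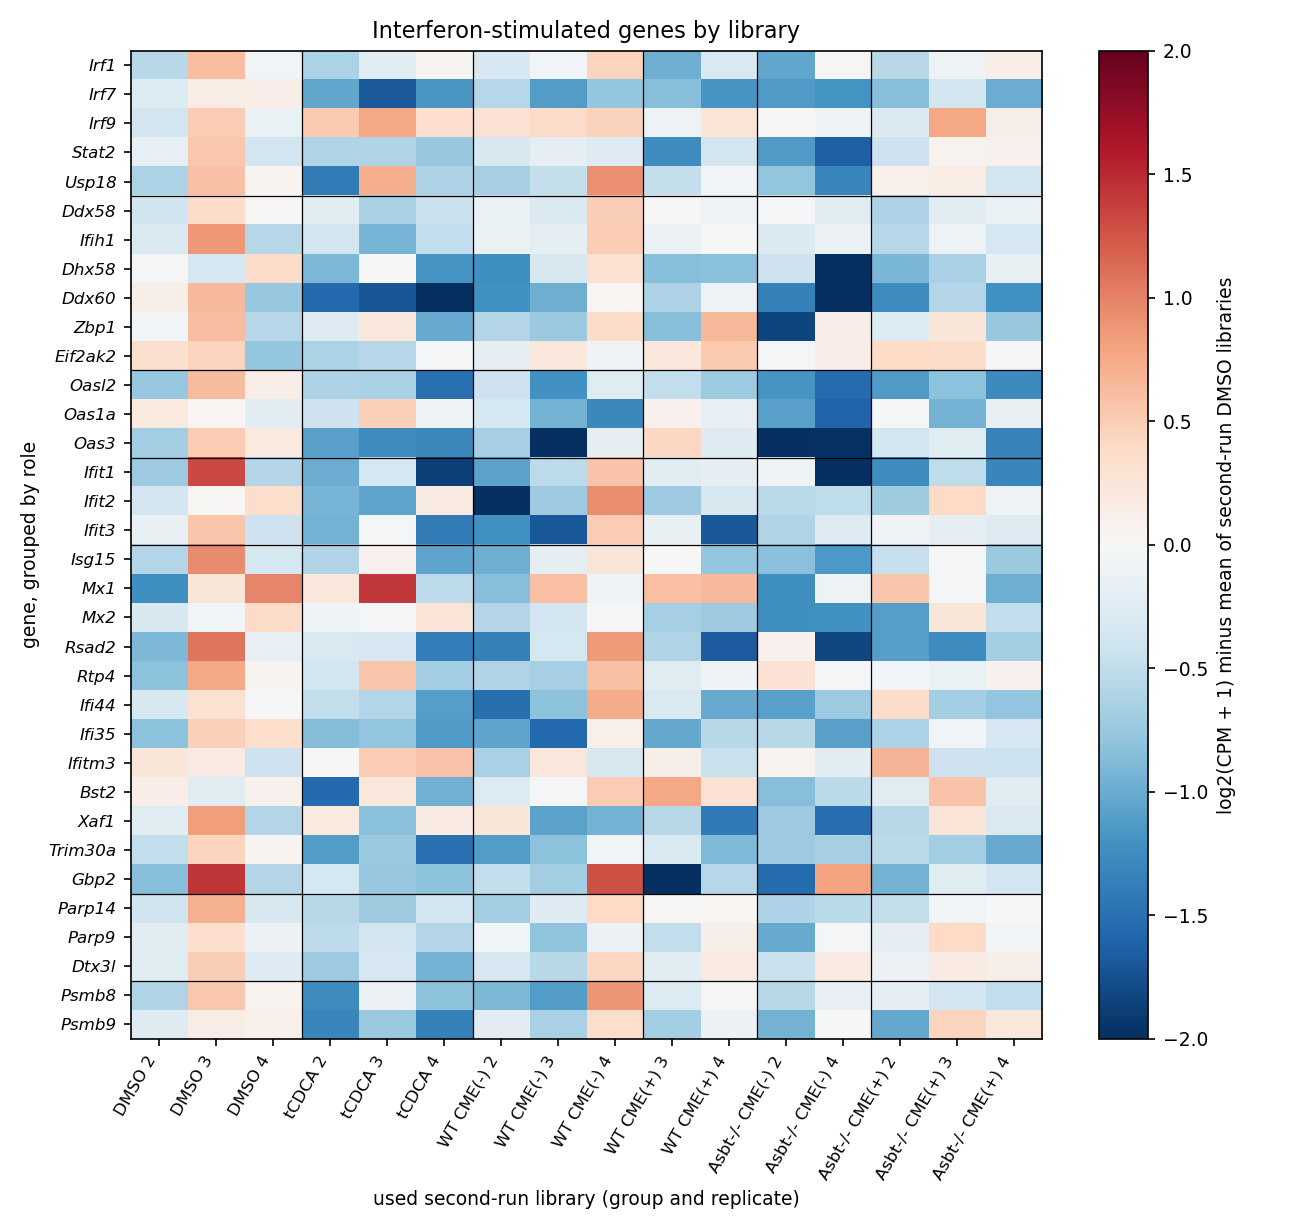
Each of the 34 genes (rows, by role) in the 16 used second-run libraries (columns): colour gives log2(CPM + 1) minus the mean of the second-run DMSO libraries, from -2 (blue) to 2 (red), with values beyond these drawn at the end colours. DMSO replicate 3 is red for most genes, and it is the highest library for 18 of them.

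The levels of many of these genes differed between the runs. In the same model 15 of the 34 were lower in the second run than in the first and 1, Bst2 (tetherin), was higher, by 3.22 ± 0.34. Of all genes 37.3% differed by run, and 18.4% were lower in the second run. The median of the 34 genes was -0.76 and that of all genes 0.02. Ifi44 and Rsad2 were lower by 2.15 log2 units each in the second run, and Trim30a by 1.59, whereas Irf7 did not pass (0.21 ± 0.16, adjusted p = 0.331). Summed T and NK cell markers were at 83.9 to 98.3 CPM in the first run and at 7.77 to 36.3 in the used libraries of the second. B and plasma cell markers summed to 337 to 468 CPM and 91.8 to 153, and macrophage markers to 171 to 214 and 60.7 to 109. Fibroblast markers summed to 600 to 850 and 215 to 460 CPM, and epithelial genes to 4050 to 4500 and 2580 to 3830. Pan-leukocyte markers overlapped, at 53.5 to 144 and 19.5 to 67.6 CPM, as did dendritic cell markers, at 5.8 to 13.6 and 3.13 to 9.75. Absorptive enterocyte markers were at 1550 to 3030 and 1360 to 9510 CPM, and smooth muscle markers at 658 to 973 and 602 to 1610. Endothelial markers were at 21.4 to 42.2 and 29.4 to 66.8 CPM. The part of these cells, and of the mitochondrial rRNA share given above, in the run difference was not tested.

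The first run gives its own, unreplicated view of DMSO, through the removed library with 0.5% DMSO. Against it, the tCDCA library was higher for 28 of the 34 genes and lower for 6, with a median log2 ratio of 0.64, while all genes divided into 49.7% lower and 50.1% higher. The WT CME(-) and WT CME(+) libraries were lower for 9 and 8 of the 34, with medians of 0.47 and 0.34. The Asbt-/- CME(-) library was lower for 14 (median 0.16) and the Asbt-/- CME(+) library for 17 (median 0.03). In this single pairing no library with an additive was thus lower for more than 17 of the 34 genes. Irf7 was lower in each: the 5 libraries with additives were at 12.2, 23, 20.1, 15.4 and 17.6 CPM, all under the 27.5 of DMSO. The same held for Usp18, at 2.62 to 7.43 CPM against 7.46, and for Bst2, at 0.936 to 1.7 against 5.31. The share of all genes for which it held was not computed. With that DMSO library added to the model 2 of the 34 genes were called with tCDCA, and the median was -0.35.

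The comparisons of the extracts with DMSO used the same DMSO libraries as tCDCA did, so their values are not independent of those above. With WT CME(-), taken as the extract with the bile acids of wild-type mice, none of the 34 genes was called by edgeR or DESeq2, and edgeR called 0.297% of all genes. At an unadjusted p under 0.05, 5 were lower (4.93% of all genes) and none higher (4.45%). The median was -0.36 (-0.05 without DMSO replicate 3), and the smallest p-values belonged to Irf7 (-0.78 ± 0.24, adjusted p = 0.176), Ifi35 (-0.94 ± 0.34, adjusted p = 0.304) and Oasl2 (-0.72 ± 0.27, adjusted p = 0.342). Irf7 was at 27.1, 18.3 and 23.5 CPM in the second run, below the 3 DMSO libraries. Oasl2, at 27.7, 15.5 and 31.2 CPM, overlapped them. WT CME(-) replicate 4 was the highest used second-run library for 5 genes, and without it Ifi35 was called (-1.44, adjusted p = 0.0496).

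With Asbt-/- CME(-), 4 of the 34 genes fell and none rose, where 0.952% of all genes were called and 0.571% were lower. Irf7 was at 18.1 and 17.2 CPM in the 2 used second-run libraries and at 15.4 in the first run, a narrow range under all 3 DMSO libraries (-1.21 ± 0.26, adjusted p = 0.0154). Stat2 was at 13.1 and 9.01 CPM, with 25 in the first run (-1.18 ± 0.31, adjusted p = 0.0473). Ddx60 was at 12.7 and 7.05 CPM, with 8.6 in the first run (-1.73 ± 0.39, adjusted p = 0.0251). Oasl2 was at 15.8 and 12.1 CPM (-1.47 ± 0.3, adjusted p = 0.0117), but at 27.7 in the first run, above the removed first-run DMSO library (26.2) and DMSO replicate 2 (21.4). In the second run all 4 of these genes had both used extract libraries below all DMSO libraries, as had 16 of the 34 in all, against 14.2% of all genes. The removed replicate 3 of this extract was at 20.6 CPM for Irf7 and 19.4 for Ddx60. For Stat2 it was at 24.6 and for Oasl2 at 21.7, each above the lowest DMSO library of the second run (22.7 and 21.4). The median was -0.8, and 33 of the 34 values were below 0, against 50.8% of all genes. That median was -0.36 without DMSO replicate 3 and -0.33 with all 24 libraries. At an unadjusted p under 0.05, 10 of the 34 were lower (6.51% of all genes) and none higher (5.87%). Without DMSO replicate 3, and likewise without Asbt-/- CME(-) replicate 4, none of the 34 was called. Without the DMSO library the changes were -1.14 for Irf7, -0.85 for Stat2, -1.36 for Ddx60 and -1.11 for Oasl2. Without the Asbt-/- CME(-) library they were -1.19, -0.94, -1.47 and -1.36. That Asbt-/- CME(-) library was the lowest of the 16 for 8 of the genes. Irf7 also missed the threshold without Asbt-/- CME(-) replicate 1 (adjusted p = 0.0559) or DMSO replicate 4 (0.0583), and Ddx60 without Asbt-/- CME(-) replicate 1 (0.0644) or 2 (0.0606). Stat2 missed it when any of 12 of the 21 libraries was left out, at adjusted p of 0.0507 to 0.363. All 8 absorptive enterocyte markers were lower at an unadjusted p under 0.05, though none was called. Their median was -1.11, and their sum was 2740 to 3230 CPM in the second run, against 4900 to 9510 with DMSO. The part of these cells in the result was not tested.

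With WT CME(+), taken as depleted of bile acids, edgeR called none of the 34 genes and 0.175% of all genes. DESeq2 called 1, Irf7 (-0.97, adjusted p = 0.0204, against 0.127 by edgeR). At an unadjusted p under 0.05 by edgeR 5 were lower (4.71% of all genes) and none higher (5.33%). Irf7 was at 22.2 and 17.4 CPM in the second run and 20.1 in the first. Ifi35 was at -0.96 ± 0.37 (adjusted p = 0.336) and Stat2 at -0.71 (adjusted p = 0.405). The removed replicate 2 of this group, at 65.4 CPM of Irf7, was above every used library, and with all 24 libraries the median of the 34 genes was 0.29 in place of -0.37. It was -0.11 without DMSO replicate 3.

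With Asbt-/- CME(+), 3 of the 34 genes fell and none rose, where 2.31% of all genes were called and 0.922% were lower. Oasl2 was at 16.3, 20.5 and 14.8 CPM in the second run, all below the lowest DMSO library, at 21.4 (-1.31 ± 0.27, adjusted p = 0.00359). Ddx60 was at 13.7, 22.4 and 14.1 CPM, where the highest passed the lowest DMSO library, at 19.7 (-1.25 ± 0.34, adjusted p = 0.039). Irf7 was at 22.2, 31.2 and 20 CPM, under the DMSO libraries (-0.81 ± 0.23, adjusted p = 0.0488). None of the 3 was called without DMSO replicate 3. The call of Irf7 was lost when any of 16 of the 21 libraries was left out, at adjusted p of 0.0517 to 0.263, and that of Ddx60 with any of 8, at 0.0505 to 0.366. For Irf7 the change in those 16 settings ran from -0.82 to -0.74. Stat2 was at 22.2, 31.5 and 31.8 CPM here, the first just below the lowest DMSO library and the others within the DMSO range. The median of the 34 genes was -0.41, and -0.08 without DMSO replicate 3. None of the 8 absorptive enterocyte markers was called, but 7 were lower at an unadjusted p under 0.05, with a median of -1.02 and a sum of 2130 to 3790 CPM in the second run against 4900 to 9510 with DMSO. The part of these cells in the result was not tested.

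**Figure D4:**
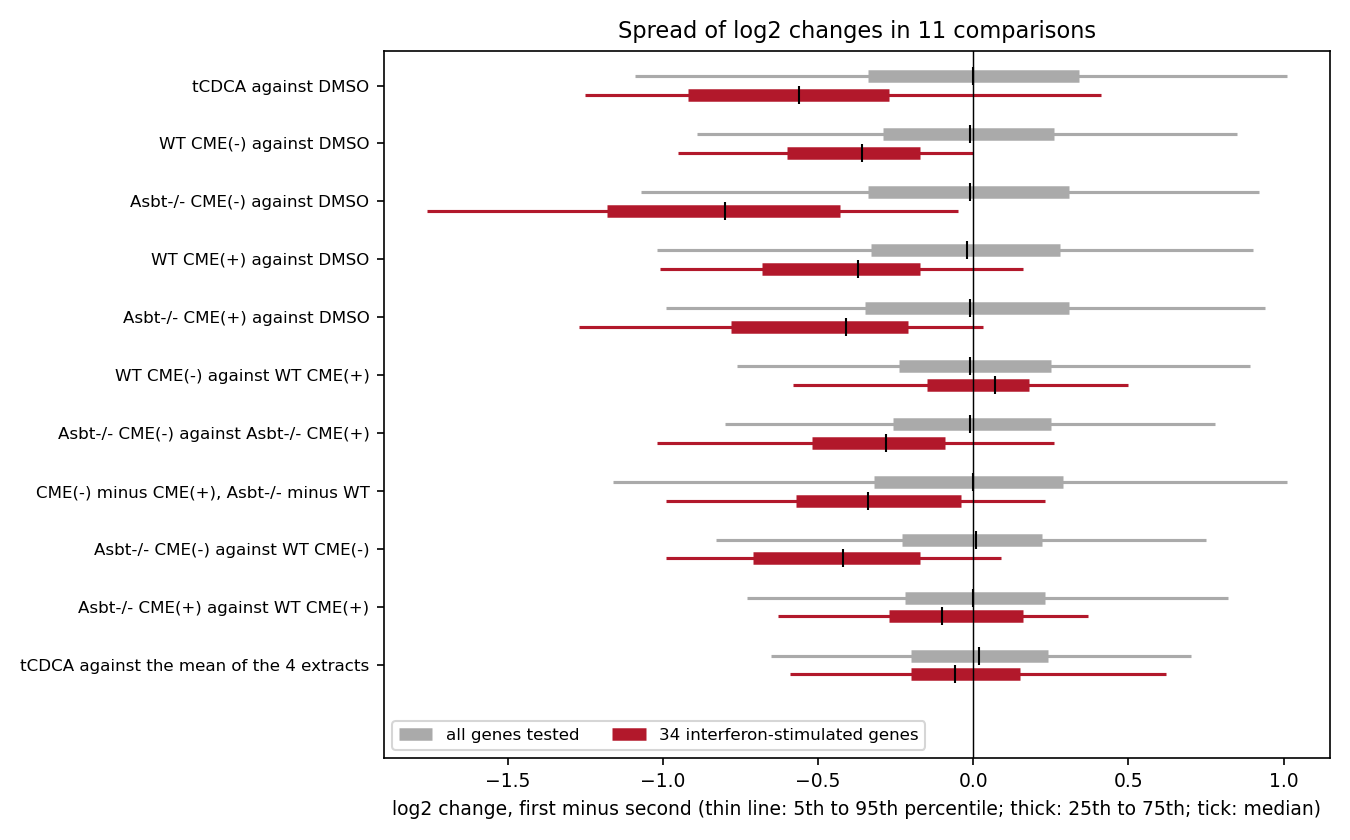
Spread of log2 changes in 11 comparisons for all genes tested (grey) and the 34 interferon-stimulated genes (red): thin lines run from the 5th to the 95th percentile, thick lines from the 25th to the 75th, and ticks mark medians. The red medians lie between -0.8 and -0.36 in the 5 comparisons with DMSO (between -0.36 and -0.05 without DMSO replicate 3, which is not drawn), and at -0.06 for tCDCA against the mean of the 4 extracts.

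Irf7 was the only one of the 34 genes that set all used DMSO libraries apart from every other used library. Its mean over used second-run libraries was 41.1 ± 6.49 CPM (SD, n = 3) with DMSO, 24.5 ± 5.93 (n = 3) with Asbt-/- CME(+), 23 ± 4.41 (n = 3) with WT CME(-), 19.8 ± 3.34 (n = 2) with WT CME(+), 17.6 ± 0.576 (n = 2) with Asbt-/- CME(-) and 16.3 ± 3.83 (n = 3) with tCDCA. Neighbours below DMSO in this order differed by less than the larger of their SDs. All 3 used DMSO libraries were above all 18 used libraries of the other groups, which held for 0.594% of all genes. The removed libraries broke this order. DMSO replicate 1 was at 27.5 CPM, below the 31.2 of Asbt-/- CME(+) replicate 3, and WT CME(+) replicate 2 was at 65.4.

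Contrasts between additives use no DMSO library. Between tCDCA and the mean of the 4 extracts none of the 34 genes was called by edgeR or DESeq2, while edgeR called 2.69% of all genes. The median was -0.06, and at an unadjusted p under 0.05, 5 were lower (6.24% of all genes) and 2 higher (7.07%). Psmb9 was at -0.65 ± 0.24 (adjusted p = 0.201), with an interval from -1.15 to -0.15. Dtx3l was at -0.45 ± 0.17 (adjusted p = 0.206) and Ddx60 at -0.71 ± 0.28 (adjusted p = 0.212).

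Between the forms of the WT extract, CME(-) against CME(+), edgeR called none of the 34 genes and none of all genes, and DESeq2 none of the 34. No gene of the set had an unadjusted p under 0.05, while 3.37% of all genes were lower and 2.96% higher by that rule. The smallest p-values were those of Bst2 (-0.49 ± 0.39), Rsad2 (0.81 ± 0.63) and Gbp2 (0.88 ± 0.77), and the interval of Gbp2, from -0.77 to 2.53, was wide. Between the forms of the Asbt-/- extract none was called by either tool, and edgeR called 0.0229% of all genes. At an unadjusted p under 0.05, 2 were lower (3.75% of all genes) and none higher (3.36%): Stat2 (-0.92 ± 0.28, adjusted p = 0.311) and Ifi35 (-0.7 ± 0.34, adjusted p = 0.694). Mx2 followed at -1.2 ± 0.61. The levels of Stat2 were 25, 13.1 and 9.01 CPM with CME(-) and 25.8, 22.2, 31.5 and 31.8 with CME(+), the first value of each being the first-run library. The removed CME(-) replicate 3 was at 24.6 CPM of Stat2, within the range of the CME(+) libraries. In the second run 12 of the 34 genes had both used CME(-) libraries below all CME(+) libraries, against 16.4% of all genes.

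The difference between those contrasts, Asbt-/- minus WT, called none of the 34 genes with edgeR or DESeq2 and none of all genes with edgeR. Stat2 had the smallest p (-1.17 ± 0.4, interval -1.97 to -0.37, adjusted p = 1) and was the single gene with an unadjusted p under 0.05, where 1.97% of all genes were lower and 1.78% higher. Irf7 was at -0.59 ± 0.34 and Ifi35 at -0.73 ± 0.49.

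Donor genotype was compared within each form of extract, with no call among the 34 genes by edgeR or DESeq2 and none among all genes by edgeR. In CME(-), Asbt-/- against WT, Oasl2 was at -0.75 ± 0.28, Ddx60 at -0.98 ± 0.37 and Stat2 at -0.72 ± 0.28, each with an adjusted p of 0.997. At an unadjusted p under 0.05, 4 of the 34 were lower (2.05% of all genes) and none higher (2%), and the median was -0.42. In CME(+) the corresponding values were -0.62 ± 0.27 for Oasl2, -0.6 ± 0.34 for Ddx60 and 0.45 for Stat2, with adjusted p of 1 for Oasl2 and Ddx60, and the median was -0.1. There 1 of the 34 was lower at an unadjusted p under 0.05, against 1.99% of all genes, and none was higher (2.25%).

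Other genes of the pathway were examined through 107 genes in 8 lists, of which 92 were tested. Of 10 interferon genes, 7 had no count in any of the 24 libraries and the highest total over all of them was 30, for Ifng, so no interferon was tested. None of the 6 receptor genes and none of the 10 signalling genes was called with tCDCA. Their medians were -0.34 and -0.21. Of 11 nucleic acid sensing genes 1 fell: Tbk1, the kinase that activates IRF3 and IRF7, was at 34.8, 40.9 and 36 CPM with DMSO and at 24.4, 22.2 and 19.2 with tCDCA, without overlap (-0.89 ± 0.23, adjusted p = 0.0135).

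Among 39 tested further interferon-stimulated genes 5 fell and 1 rose with tCDCA. Uba7 and Ube2l6, the activating and conjugating enzymes for ISG15, changed by -0.97 ± 0.29 (adjusted p = 0.0345) and -1.33 ± 0.36 (adjusted p = 0.0203). Ube2l6 was at 12.8, 42.3 and 23.8 CPM with DMSO and at 10.2, 9.39 and 8.16 with tCDCA. Isg15 itself and the ISG15 protease gene Usp18 did not pass, and their difference from Uba7 and Ube2l6 was not tested. Pml, which builds nuclear bodies, changed by -0.89 ± 0.23 (adjusted p = 0.0141), Ifi27l2b by -1.1 ± 0.29 (adjusted p = 0.0263) and Tdrd7 by -0.73 ± 0.22 (adjusted p = 0.04). Ifitm2 rose by 0.73 ± 0.19 (adjusted p = 0.0169). It was at 33.6, 27.6 and 28 CPM with DMSO and at 54.9, 51.1 and 42.1 with tCDCA, and its reads can be shared with its similar neighbour Ifitm3.

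Of 12 genes of MHC class I presentation 3 fell with tCDCA. Tapbp, the chaperone that bridges class I molecules and the peptide transporter, was at 130, 168 and 159 CPM with DMSO and at 93.3, 88.7 and 71.3 with tCDCA (-0.79 ± 0.17, adjusted p = 0.00201). B2m, the class I light chain, was at 1000, 1350 and 1020 CPM and at 668, 602 and 538 (-0.72 ± 0.2, adjusted p = 0.0213). H2-K1, a class I heavy chain, changed by -0.54 ± 0.16 (adjusted p = 0.0367). For Tapbp and B2m no tCDCA library of the second run reached the lowest DMSO library. None of the 10 interferon-gamma GTPase genes and none of the 4 other IRF genes was called. In all, 9 of the 92 genes were lower and 1 higher, against 3.16% and 2.52% of all genes, with a median of -0.3. Without DMSO replicate 3, 2 of the 92 were called, without tCDCA replicate 3 or 4 in each case 5, and without scaling factors 1.

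With Asbt-/- CME(+), 5 of the 92 pathway genes fell and 1 rose, against 0.922% and 1.39% of all genes. Without DMSO replicate 3 none was called, 3 without DMSO replicate 4 or replicate 3 or 4 of that extract, and 2 without its replicate 2. The smallest p-values were those of Ifitm2 (0.87 ± 0.19, adjusted p = 0.00803), H2-K1 (-0.7 ± 0.16, adjusted p = 0.0114), Tbk1 (-0.96 ± 0.23, adjusted p = 0.0159) and Ube2l6 (-1.47 ± 0.35, adjusted p = 0.0181). None of the 92 was called by edgeR with WT CME(-), Asbt-/- CME(-) or WT CME(+) against DMSO, where 5, 16 and 6 were lower and 1 each higher at an unadjusted p under 0.05. The shares of all genes lower by that rule were 4.93%, 6.51% and 4.71%, so that the counts of 5 and 6 among the 92 lay near the background. Against the mean of the 4 extracts, 2 of the 92 were lower and 1 higher, near the 1.31% and 1.38% of all genes. tCDCA was lower for Pml (-0.72 ± 0.17, adjusted p = 0.0126) and for the interferon-gamma receptor chain Ifngr1 (-0.46 ± 0.13, adjusted p = 0.0429). It was higher for Cxcl10, a chemokine that draws T cells (0.58 ± 0.15, adjusted p = 0.024).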

How the data were processed

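The authors deposited raw tag counts per gene, whole numbers in a single table. The submitters' processing notes name the tools HISAT2, cutadapt, FastQC and Picard and the build GRCm39. How genes were counted, with which annotation and whether by strand, is not given in the sources used here, so overlapping and antisense genes are uncertain. Symbols came from GENCODE M21 (GRCm38) and matched 51884 of 57126 identifiers, which held 88.4% of the counts. Promoters are of build GRCm38.p6.

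Counts were tested with edgeR 4.0.16 in R 4.3.3: filterByExpr, TMM scaling and 1 robust quasi-likelihood model with group and run on 21 libraries. Each of 11 contrasts was tested two-sided, and p-values were adjusted by the Benjamini-Hochberg method over 13125 genes. The common biological coefficient of variation was 0.266. Levels are TMM-scaled CPM. Alternatives included DESeq2 1.42.0.

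Members and gene lists were chosen with earlier results of these data known. Named were all called members, the 12 smallest p-values with tCDCA against DMSO, the 3 smallest elsewhere, all called pathway genes with tCDCA against DMSO and up to 4 elsewhere; other genes are named after their values were seen. In replicates 2 to 4 the labels give the same extract donor to same-numbered CME(-) and CME(+) libraries. For replicate 1 no donor is given, and the pairing is by number alone. Deviations of same-numbered CME(-) and CME(+) libraries correlated at -0.08 to 0.07 in replicates 2 to 4. In replicate 1 they correlated at -0.21 (WT) and -0.32 (Asbt-/-).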

Additional observations from a re-analysis of the deposited data

Results flagged for a closer look

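Of 48 groups of 4 libraries examined over 16 named genes, 8 had a library far from the other 3 by Dixon's test at 95%. By chance it flags about 1 in 20 groups of like libraries, but each of these groups joins 1 first-run library with 3 of the second run, and in 6 of the 8 the library apart was that of the first run. In the tCDCA group the first-run library stood above the other libraries for Trim30a (40.7 CPM, others 6.59 to 11.7), Stat2 (31.9, others 17.3 to 19.3), Oas3 (14.1, others 2.51 to 3.05) and Gbp2 (160, others 29.8 to 41.7). The first-run library was also apart for Irf9 with WT CME(-) (61.4 CPM, others 30.9 to 34.9) and for Rsad2 with Asbt-/- CME(+) (87.2, others 8.58 to 13.3). Within the second run, Ddx60 was at 34.9 CPM in WT CME(-) replicate 4, the others being at 14.1 to 16.9, and Mx2 at 5.02 in tCDCA replicate 4, the others being at 3.71 to 3.91.

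The removed WT CME(+) replicate 2 was left out of the comparisons above. Its summed level of the 34 tested genes was 2520 CPM, against 781 to 1790 in the used second-run libraries, and it was the highest of the 18 second-run libraries for 26 of the 34 genes, against 11.5% of all genes. Its enterocyte markers summed to 9120 CPM, within the 1360 to 9510 of the used second-run libraries. Its T and NK cell markers summed to 54.2 CPM, against 7.77 to 36.3 in those libraries. The part of either in its level was not tested.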

How the results depend on the processing

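In the comparisons with DMSO the counts of called genes fell under several alternatives. The shares of all genes called under each alternative are not given here or above. From the counts of these genes alone, a loss of calls over all genes cannot be told apart from one particular to them. Which of these held was not tested. With tCDCA the count of 4 was 2 without scaling factors, without the run term and with DMSO replicate 1 added, 1 with all 24 libraries, and 2 to 5 when each of the 21 libraries was left out; without DMSO replicate 3, DMSO replicate 4 or tCDCA replicate 4 it was 2. With Asbt-/- CME(-) the count of 4 was 0 without scaling factors, without the run term and with all 24 libraries, 1 in second-run libraries only, with DMSO replicate 1 added and with the compared groups alone, and 0 to 5 with 1 library left out (2 without replicate 1 or 2 of that group). With Asbt-/- CME(+) the count of 3 was 1 without scaling factors, in second-run libraries only and with the compared groups alone, 0 without the run term, with all 24 libraries and with DMSO replicate 1 added, and 0 to 3 with 1 library left out (1 without replicate 1, 2 or 4 of that group, WT CME(-) replicate 1, Asbt-/- CME(-) replicate 1 or WT CME(+) replicate 3). With WT CME(-) it was 0 to 1 and for tCDCA against the mean of the extracts 0 to 1 (without Asbt-/- CME(+) replicate 2); the latter was 2 with no count filter. WT CME(+) had 1 call with DESeq2. Without tCDCA replicate 3 and DMSO replicate 3, an alternative chosen after seeing the data, the counts were 1, 1 and 0 for tCDCA, Asbt-/- CME(-) and Asbt-/- CME(+). The cause was not tested. Without scaling factors the median of all genes itself moved to 0.13 with tCDCA, 0.12 with WT CME(+) and 0.22 with Asbt-/- CME(+).

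With the replicate number as a block in place of the run term, 2 genes were called with Asbt-/- CME(-) and 1 with Asbt-/- CME(+), in place of 4 and 3. With a block for the extract donor, where replicate 1 was paired by its number alone, the contrasts between the forms still had 0. The replicate block moved no other count of called members by over 1.5 times. Values that changed sign were Ifih1 with tCDCA (0.05 without DMSO replicate 3, the highest of -0.78 to 0.05 with 1 library left out, and 0.22 also without tCDCA replicate 3) and, with all 24 libraries, Stat2 in WT CME(+) against DMSO (0.09), Rsad2 and Gbp2 between the forms of the WT extract (-0.37 and -0.35), Irf7 in the difference of the forms (0.05) and Stat2 in Asbt-/- CME(+) against WT CME(+) (-0.11). Irf7 with tCDCA passed in 33 of 33 alternatives, Ddx60 in all but 2, and Oasl2 and Trim30a failed in 10 and 11. With a prior count of 0.5 in place of 2, 8 of 204 levels moved by over 1 SD. At 2.76 to 5.6 M counts per library, low genes such as Mx1 have wide intervals.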
